A study of Homo sapiens with 8 samples.

Results

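YAP and TEAD target genes are described here through the accessible chromatin around 10 genes, CCN1, CCN2, THBS1, ANKRD1, AXL, AMOTL2, LATS2, AJUBA, TEAD1 and YAP1, of 19970 protein-coding genes on chromosomes 1 to 22 and X. The members were chosen by name, as known YAP and TEAD targets with 2 regulators of the pathway. Earlier results of these data were known when they were chosen. Each was taken with its RefSeq span (GRCh38.p14, the same coordinates as hg38) and 20 kb on each side. The 10 windows did not overlap each other. Accessibility was read by ATAC-seq, where Tn5 transposase inserts adapters into open chromatin, in U2OS, a human osteosarcoma cell line long in culture. The groups were siOrc6 with H2O2, siGl3 with H2O2, siOrc6 untreated and siGl3 untreated, with 2 libraries each, titled replicate 1 and replicate 2. The batch numbers listed for the libraries equal these replicate numbers. Orc6 belongs to the origin recognition complex, which licenses DNA replication, and siGl3 is the control siRNA. All cells carried an siRNA for 72 h, went through a double thymidine block with 3 h of release into S phase, and where treated received 5 mM H2O2 for 30 min. The labels do not say whether the libraries of a group came from separate cultures.

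In the Hippo pathway, a kinase cascade ending in LATS1 and LATS2 phosphorylates the coactivator YAP1 and keeps it out of the nucleus. Unphosphorylated YAP1 binds TEAD1 and its relatives, which sit on DNA at the short MCAT element, and switches on genes of adhesion, matrix and growth. Several targets, among them LATS2 and AMOTL2, restrain YAP1 in turn, and YAP1 is active in spread, adherent cells such as cultured mesenchymal lines.

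Each group had 1 deposited list of accessible regions (peaks), of 97816 to 115292 peaks on these chromosomes, and 4 further lists held the regions that the authors called changed in siOrc6 against siGl3, 1 for each direction and treatment. The sources used here do not give the threshold of those calls. No list held a value per library or a read count, so the depth and the spread between replicates are unknown and no difference could be tested. Peak strength is given as a percentile, the share of peaks in the same list whose signal (the authors' value) was no higher; percentiles of lists of different length show no change in level. As a check of the cell line, 6 of 9 bone and mesenchyme genes, among them RUNX2, SP7 and COL1A1, had a peak within 1 kb of an annotated end in every list, while ALPL and TWIST1 had none in any list and PRRX1 had one only in siOrc6 with H2O2. Of 6 epithelial genes, CDH1, ESRP1 and GRHL2 had none in any list and EPCAM, CLDN4 and KRT5 had one in all 4. Of 6 blood genes, CD3E and SPI1 had one in all 4 lists, so that a peak at a gene end does not by itself mark the cell type.

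The starts of the target genes carried the letters to which TEAD factors bind more often than other starts did. RefSeq promoter windows of 300 bases, 250 before and 50 after the gene start, were found for 8 of the 10 members (11 windows). The MCAT core GGAATG, searched on both strands, so that CATTCC counts as well, was in a window of all 8 members and in 8 of the 11 windows (72.7%), against 4928 of 35116 windows of all genes (14.0%). The members are textbook targets, some of them through these very elements, so this is a description of the list and no independent result. Upstream stretches of 4 members are shown, each 250 bases and 5′ to 3′ along the gene. CCN2 has the most matches among the members, ANKRD1 and AXL lie by regions that changed, and THBS1 holds the most regions called higher without H2O2. Capitals mark GGAATG or CATTCC and, in ANKRD1, TGATTCA, a match to the AP-1 search pattern TGANTCA, where N is any base. No match overlaps another.
CCN2 (chr6:131951373-131951622, minus strand): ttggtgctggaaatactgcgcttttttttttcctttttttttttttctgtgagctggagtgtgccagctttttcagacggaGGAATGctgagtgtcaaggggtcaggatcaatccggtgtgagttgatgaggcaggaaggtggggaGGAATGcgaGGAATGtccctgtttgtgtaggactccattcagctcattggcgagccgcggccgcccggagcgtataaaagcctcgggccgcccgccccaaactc
THBS1 (chr15:39580829-39581078, plus strand): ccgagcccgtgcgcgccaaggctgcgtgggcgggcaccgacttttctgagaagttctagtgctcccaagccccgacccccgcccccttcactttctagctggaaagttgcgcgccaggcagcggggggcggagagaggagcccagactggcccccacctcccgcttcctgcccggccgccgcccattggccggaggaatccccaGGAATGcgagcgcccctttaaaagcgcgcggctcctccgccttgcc
ANKRD1 (chr10:90921088-90921337, minus strand): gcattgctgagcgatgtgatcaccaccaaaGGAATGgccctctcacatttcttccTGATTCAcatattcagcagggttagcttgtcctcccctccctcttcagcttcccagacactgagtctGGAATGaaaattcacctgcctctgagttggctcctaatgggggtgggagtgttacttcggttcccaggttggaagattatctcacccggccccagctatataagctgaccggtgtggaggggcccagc
AXL (chr19:41226505-41226754, plus strand): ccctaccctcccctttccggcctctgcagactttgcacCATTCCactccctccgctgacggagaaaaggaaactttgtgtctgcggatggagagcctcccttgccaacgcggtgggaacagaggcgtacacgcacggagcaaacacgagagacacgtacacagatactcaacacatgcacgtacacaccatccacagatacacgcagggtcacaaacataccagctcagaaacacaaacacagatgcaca

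CCN2 held 3 matches, with first bases 169, 104 and 95 bases before the start, a number that 0.128% of all windows reached. ANKRD1 held 2 (1.37% of windows had at least 2), 220 and 128 bases before the start, and the AP-1 element lay 195 bases before it. AP-1 letters were in 1 of the 11 member windows and in 7.71% of all windows. AXL had its match at the second of its 2 annotated starts, and AMOTL2 and AJUBA also at 1 of 2. THBS1 and YAP1 had 1 each, and in LATS2 the match began at base 10 of the transcript. A match says nothing of whether TEAD was bound there in these cells.

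Without H2O2, most of these genes had a region that the authors called more accessible in siOrc6. Regions called higher in siOrc6 were found at 7 of the 10 members (THBS1, ANKRD1, CCN1, AXL, AMOTL2, LATS2 and TEAD1), against 24.8% of all protein-coding genes with the same flanks, and regions called lower at 3 (LATS2, TEAD1 and YAP1), against 17.8%. CCN2 and AJUBA had neither. The members' windows hold more peaks than most, with a median of 8.5 merged peaks against 5.0 for all genes, although their median span was 19230.5 bp against 24190.0 bp; among the 10890 genes with as many merged peaks as the members (5 to 27), chosen after seeing the data, 33.9% had a higher and 26.3% a lower region. Counted by peak, the members stood further from the whole. Of 98 merged peaks of the untreated lists in the 10 windows, 26 lay at a higher region, 26.5% (95% Wilson interval 18.8% to 36.0%), against 7.36% of all 123830 merged peaks and 6.86% of those in the window of any protein-coding gene. For lower regions 4 of 98 did (4.08%, interval 1.60% to 10.0%), against 4.99%. The intervals cover counting error only and treat peaks as independent, which neighbours in 1 gene are not. Since the members were chosen with earlier results of these data known, their shares are a description.

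The 26 peaks belonged to 17 higher regions, and 9 of them to THBS1. Without THBS1 the share was 17 of 87 (19.5%). Among the 50% of peaks with the highest signal in each list it was 20.8%, against 8.63% of all such peaks. The 17 regions were wide, between 229 and 3894 bp with a median of 1763.0 bp, against 648 bp for all 7517 higher regions. Of the 17, 12 touched the gene itself, and 2 lay over an annotated start, those of ANKRD1 and LATS2, among the 12 regions of genes with a start in the promoter table; among all higher regions 13.6% overlapped the 300-base window at a RefSeq start. In 6 of the 17 the untreated siGl3 list had no peak, and in 11 both lists had one, so most lay where the control list also had a peak; over all higher regions 27.2% lacked a siGl3 peak. The 3 lower regions lay inside the genes, and the 2 at LATS2 and YAP1 were not over an annotated start.

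**Figure D1:**
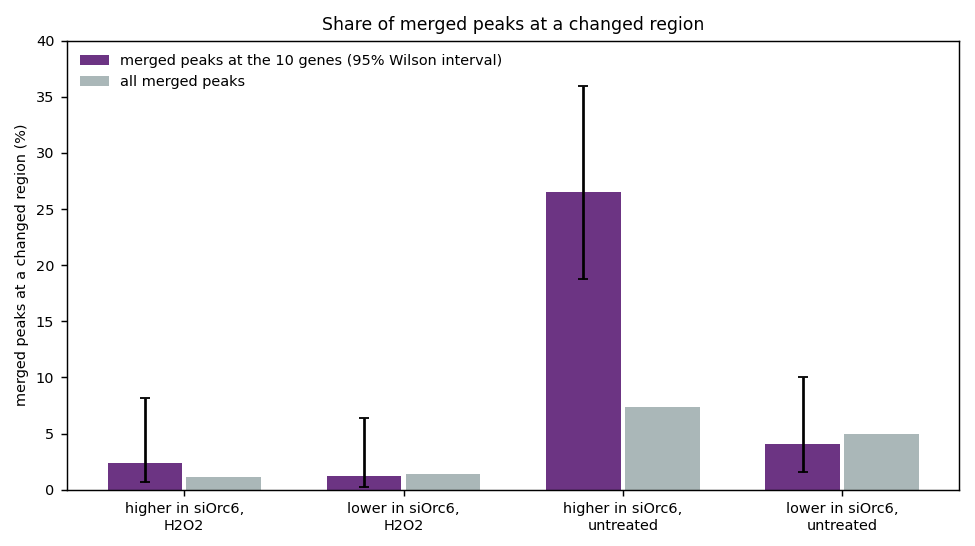
Percent of merged peaks (y axis) that lie at a region called changed in siOrc6 against siGl3, with H2O2 (left) and untreated (right), for the 10 genes (purple, bars of the 95% Wilson interval) and for all merged peaks (grey). For higher regions in untreated cells the members stand at 26.5% and all peaks at 7.36%; elsewhere the grey value lies within the members' interval.

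Among the secreted matrix proteins, THBS1 had the most regions. THBS1 (chromosome 15, 39581079 to 39599466) encodes thrombospondin-1, a matrix glycoprotein that regulates adhesion and activates TGF-beta. It held 5 higher regions in untreated cells, a number reached by 54 of 19970 genes (0.270%), and none with H2O2. That share takes no account of peak number, and the THBS1 window holds 11 merged peaks, against a median of 5.0 for all genes. The 5 regions ran through the gene body from 5368 bp after the start to beyond the far end. The peak at the start, among the strongest of every list, was not called. The start peak was 5157 bp wide in siOrc6 with H2O2, 5411 bp in siGl3 with H2O2, 5498 bp in untreated siOrc6 and 4081 bp in untreated siGl3, always at or above the 99.9 percentile. In untreated siGl3 the same stretch held 3 peaks, against 1 in each other list, so its width is not directly comparable. The stretch also overlaps a neighbouring gene, LOC124903470.

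In the first THBS1 region (39586447 to 39590340), peaks covered 2094 bp in siOrc6 and 822 bp in siGl3 with H2O2, and 3287 bp in siOrc6 and 1524 bp in siGl3 without it. In the third (39592416 to 39596262) they covered 1373 bp in siOrc6 and 247 bp in siGl3 with H2O2, and 3264 bp in siOrc6 and 486 bp in siGl3 without it. In the fourth, at the far end (39597798 to 39599776), they covered 1264 bp in siOrc6 and 0 bp in siGl3 with H2O2, and 1978 bp in siOrc6 and 1001 bp in siGl3 without it. In all 3 the cover was longer in siOrc6 in both treatments, although regions were called in untreated cells alone. The second (39591082 to 39591910) had a peak only in untreated siOrc6, of 828 bp at the 26.7 percentile. The fourth and the fifth (39602206 to 39602445), 2740 bp past the gene, also lie within FSIP1, a neighbouring gene, so they cannot be assigned to THBS1 alone.

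CCN1 and CCN2, secreted matricellular proteins that bind integrins and are the standard readouts of YAP activity, had different calls. CCN1 (chromosome 1, 85580761 to 85583950) had 1 higher region of 2473 bp without H2O2 (85583716 to 85586188), at the higher-coordinate end of the gene and beyond. Within it, 1895 bp beyond the gene, lay 1 of the 2 higher regions that the 10 genes had with H2O2 (85585845 to 85586151, 307 bp). The peak there reached the 16.3 percentile in siOrc6 with H2O2 and was absent in siGl3 with H2O2, and it reached the 43.2 percentile in untreated siOrc6 and the 5.88 percentile in untreated siGl3. The peak over the body of CCN1, not called, stood at percentiles of 98.1 in siOrc6 and 97.9 in siGl3 with H2O2, and of 99.8 in siOrc6 and 99.7 in siGl3 without it.

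CCN2 (chromosome 6, 131948176 to 131951372), whose upstream stretch above has the 3 MCAT cores, had no changed region in either treatment. Its start lay under 1 broad peak in every list, of 3226 bp in siOrc6 and 3550 bp in siGl3 with H2O2, and of 3798 bp in siOrc6 and 3599 bp in siGl3 without it. All 4 stood between the 99.2 and 99.7 percentiles. CCN2 and CCN1 are therefore both at the top of every list, and only CCN1 had regions that the authors called; whether the 2 genes differ was not tested.

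ANKRD1 (chromosome 10, 90912096 to 90921087), which encodes a nuclear ankyrin-repeat protein of muscle and stressed cells, had a higher region upstream in both treatments. The region lay 9042 bp before the start with H2O2 (90930129 to 90931829) and 9043 bp before it without (90930130 to 90931892). Its single peak was 1700 bp wide in siOrc6 and 1476 bp in siGl3 with H2O2, and 1762 bp in siOrc6 and 1510 bp in siGl3 without it. Within the lists, its percentile was 97.4 in siOrc6 and 92.6 in siGl3 with H2O2, and 98.4 in siOrc6 and 95.5 in siGl3 without it. The peak was wider in siOrc6 under both treatments and lay near the top of all 4 lists. No other protein-coding gene covers it, although RPP30 lies in the same window. The region over the start (90920088 to 90921899), which contains the 250 bases shown, was called higher without H2O2. Peaks covered 1365 bp of it in siOrc6 and 1546 bp in siGl3 with H2O2, and 1661 bp in siOrc6 and 1569 bp in siGl3 without it, so the longer cover in siOrc6 was seen in untreated cells alone.

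**Figure D2:**
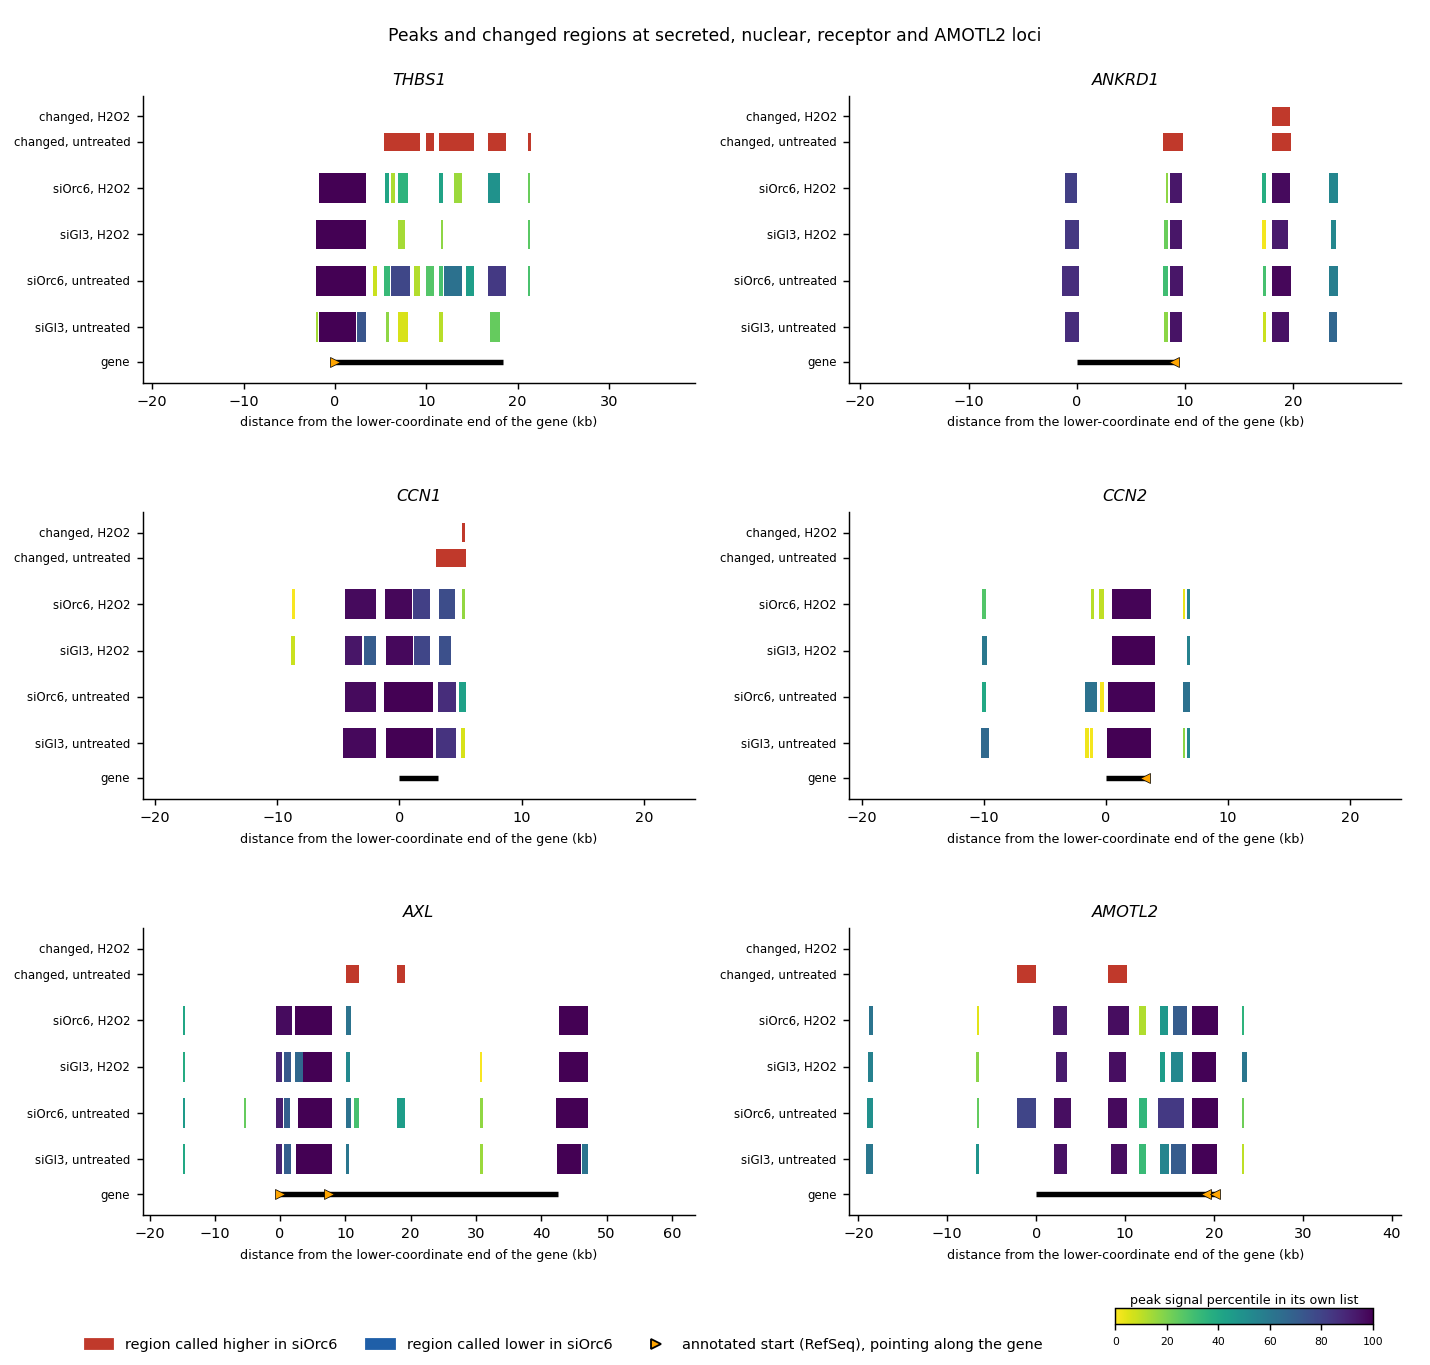
Peaks of each list (rows, coloured by signal percentile within the list) and regions called higher (red) or lower (blue) in siOrc6, against distance in kb from the lower-coordinate end of the gene, for 6 members with 20 kb on each side; the narrowest features are drawn slightly wider to be visible. In THBS1 the untreated siOrc6 row fills the gene body where the siGl3 row has few peaks, ANKRD1 shows 1 upstream region called in both treatments, and CCN2 has none.

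AXL (chromosome 19, 41219223 to 41261766), a receptor tyrosine kinase for the ligand GAS6, had 2 higher regions without H2O2, both inside the gene and after its second start at 41226755. In the first (41229269 to 41231337) peaks covered 783 bp in siOrc6 and 509 bp in siGl3 with H2O2, and 1575 bp in siOrc6 and 577 bp in siGl3 without it. The second (41237099 to 41238399) had 1 peak of 1300 bp in untreated siOrc6, at the 44.7 percentile, and none in the other lists. The second start lay under a peak of 5658 bp in siOrc6 and 4403 bp in siGl3 with H2O2, and of 5214 bp in siOrc6 and 5531 bp in siGl3 without it, each at the 99.9 percentile and none called. In siGl3 with H2O2 that stretch held 2 peaks, against 1 in each other list, so its width is not directly comparable. A broad peak at the higher-coordinate side of the AXL window (merged, 41261523 to 41266375) overlaps the neighbour HNRNPUL1 and was not called either. Without H2O2 it also covered the higher-coordinate end of AXL, and with H2O2 it began past that end.

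Among the 3 members that act in or on the kinase cascade, the calls differed. AMOTL2 (chromosome 3, 134355345 to 134375417), an angiomotin that holds YAP1 in the cytoplasm, had 2 higher regions without H2O2 and none with it. One lay 56 bp past the far end of the gene (134353138 to 134355289) and held a peak of 2151 bp at the 79.3 percentile in untreated siOrc6 and no peak in the other 3 lists. That percentile was the highest among the 6 higher regions without an untreated siGl3 peak. The other, inside the gene (134363390 to 134365562), had a peak in every list, covering 2114 bp in siOrc6 and 1944 bp in siGl3 with H2O2, and 2172 bp in siOrc6 and 1751 bp in siGl3 without it. Its percentiles lay between 96.2 and 97.4.

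LATS2 (chromosome 13, 20973036 to 21061586), the kinase that phosphorylates YAP1, had regions in both directions without H2O2. Over its start, a region of 980 bp (21061128 to 21062107) was called higher. The peak there was 748 bp wide at the 78.6 percentile in siOrc6 and 1460 bp at the 81.1 percentile in siGl3 with H2O2, and 979 bp at the 77.8 percentile in siOrc6 and 565 bp at the 68.3 percentile in siGl3 without it. The siOrc6 peak was thus the wider one in untreated cells and the narrower one with H2O2, where no region was called. Inside the gene, 27129 bp from the start, a region of 894 bp (21033564 to 21034457) was called lower. Its peak covered 359 bp in siOrc6 and 788 bp in siGl3 with H2O2, and 423 bp in siOrc6 and 893 bp in siGl3 without it, and siGl3 had the longer cover in both treatments, while the authors' call was made without H2O2.

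AJUBA (chromosome 14, 22971177 to 22982551), a LIM-domain scaffold that binds LATS kinases, had no changed region. Its outer start lay under a peak of 3716 bp in siOrc6 and 2537 bp in siGl3 with H2O2, and of 3260 bp in siOrc6 and 3862 bp in siGl3 without it, at percentiles between 96.6 and 98.7. The stretch held 3 peaks in siGl3 with H2O2, 2 in untreated siOrc6 and 1 in each other list, so these widths are not directly comparable. The inner start, at 22976842, was under a peak without H2O2, of 1814 bp at the 80.2 percentile in siOrc6 and of 457 bp at the 9.35 percentile in siGl3. With H2O2 no peak covered this start base. The MCAT core lies 59 bases before it, and with H2O2 a siOrc6 peak covered the core (22976871 to 22977184, 21.4 percentile). No siGl3 peak with H2O2 did.

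**Figure D3:**
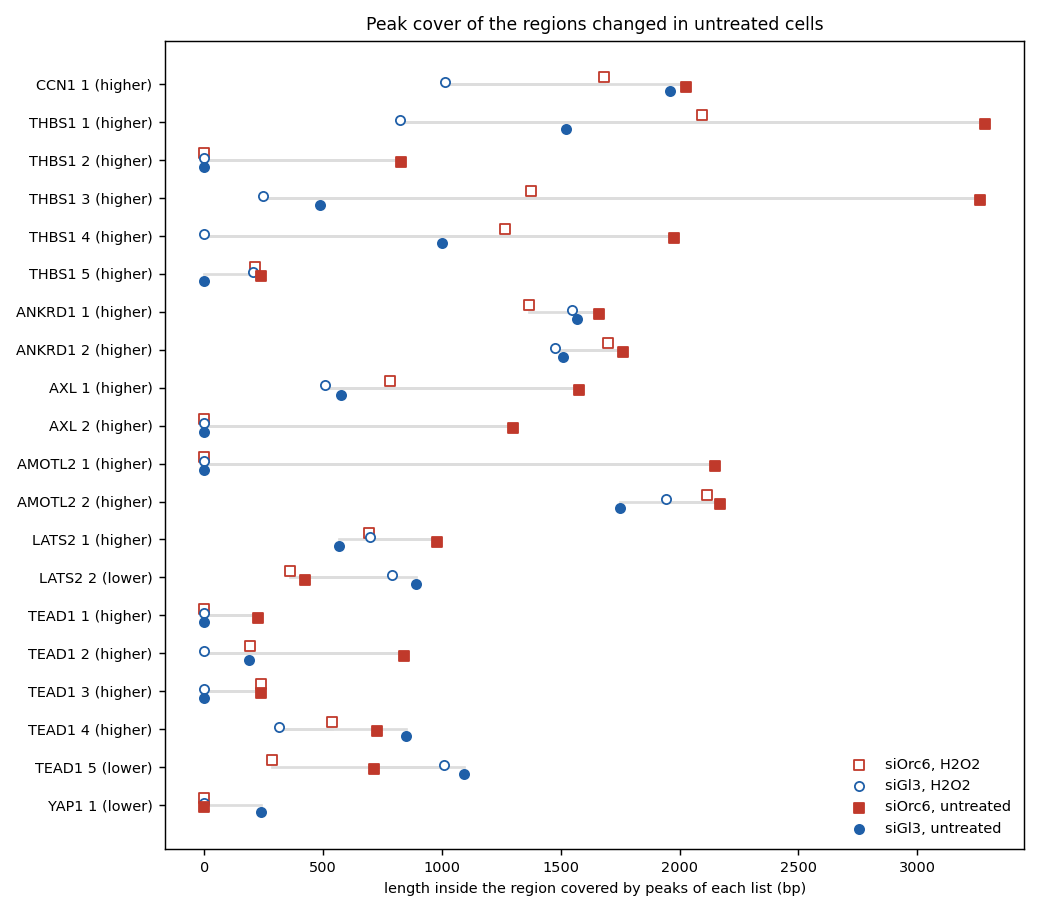
Length in bp (x axis) inside each region changed in untreated cells that peaks of each list cover, with siOrc6 as red squares and siGl3 as blue circles, open with H2O2 and filled untreated; regions are numbered along each gene's listing, higher ones before lower ones. In 16 of the 17 higher regions the untreated siOrc6 list covers more than the untreated siGl3 list, the exception being the fourth of TEAD1. The regions were called higher from these same data, so this follows largely from how they were picked and is no separate result. With H2O2, siOrc6 covers more than siGl3 in 11 of the 17. Neither count was set against all higher regions.

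The 2 transcription regulators were the longest members. TEAD1 (chromosome 11, 12674421 to 12944737), the DNA-binding partner, had 4 higher and 1 lower region without H2O2 and 1 lower region with it. At least as many higher regions were found at 122 genes (0.611%), but the window of TEAD1 is 270317 bp plus its flanks and holds 27 merged peaks, the most of the 10. Of these, 3 lie near the lower-coordinate end and held weak peaks, at percentiles of at most 30.0 in untreated siOrc6. The region of 957 bp that lies 2658 bp outside the gene (12670807 to 12671763) had peaks over 192 bp in siOrc6 and 0 bp in siGl3 with H2O2, and over 842 bp in siOrc6 and 190 bp in siGl3 without it. In the fourth (12769368 to 12770530) peaks covered 538 bp in siOrc6 and 315 bp in siGl3 with H2O2, and 726 bp in siOrc6 and 851 bp in siGl3 without it, so that cover and call differed in direction there.

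The lower TEAD1 region without H2O2 (12817718 to 12818981) had peaks over 283 bp in siOrc6 and 1008 bp in siGl3 with H2O2, and over 715 bp in siOrc6 and 1092 bp in siGl3 without it. The lower region with H2O2 (12851846 to 12852077) is 232 bp wide. It had a peak in neither siOrc6 list, a peak at the 22.3 percentile in siGl3 with H2O2 and one at the 13.8 percentile in untreated siGl3. YAP1 (chromosome 11, 102110447 to 102233424), the coactivator itself, had 1 region, lower without H2O2 and 239 bp wide (102157274 to 102157512), with a peak at the 17.9 percentile in untreated siGl3 and none in the other lists. Of the 7 changed regions at the 2 regulators, 5 held no peak above the 30.0 percentile in any list. No region at the 10 genes was called in opposite directions in the 2 treatments.

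**Figure D4:**
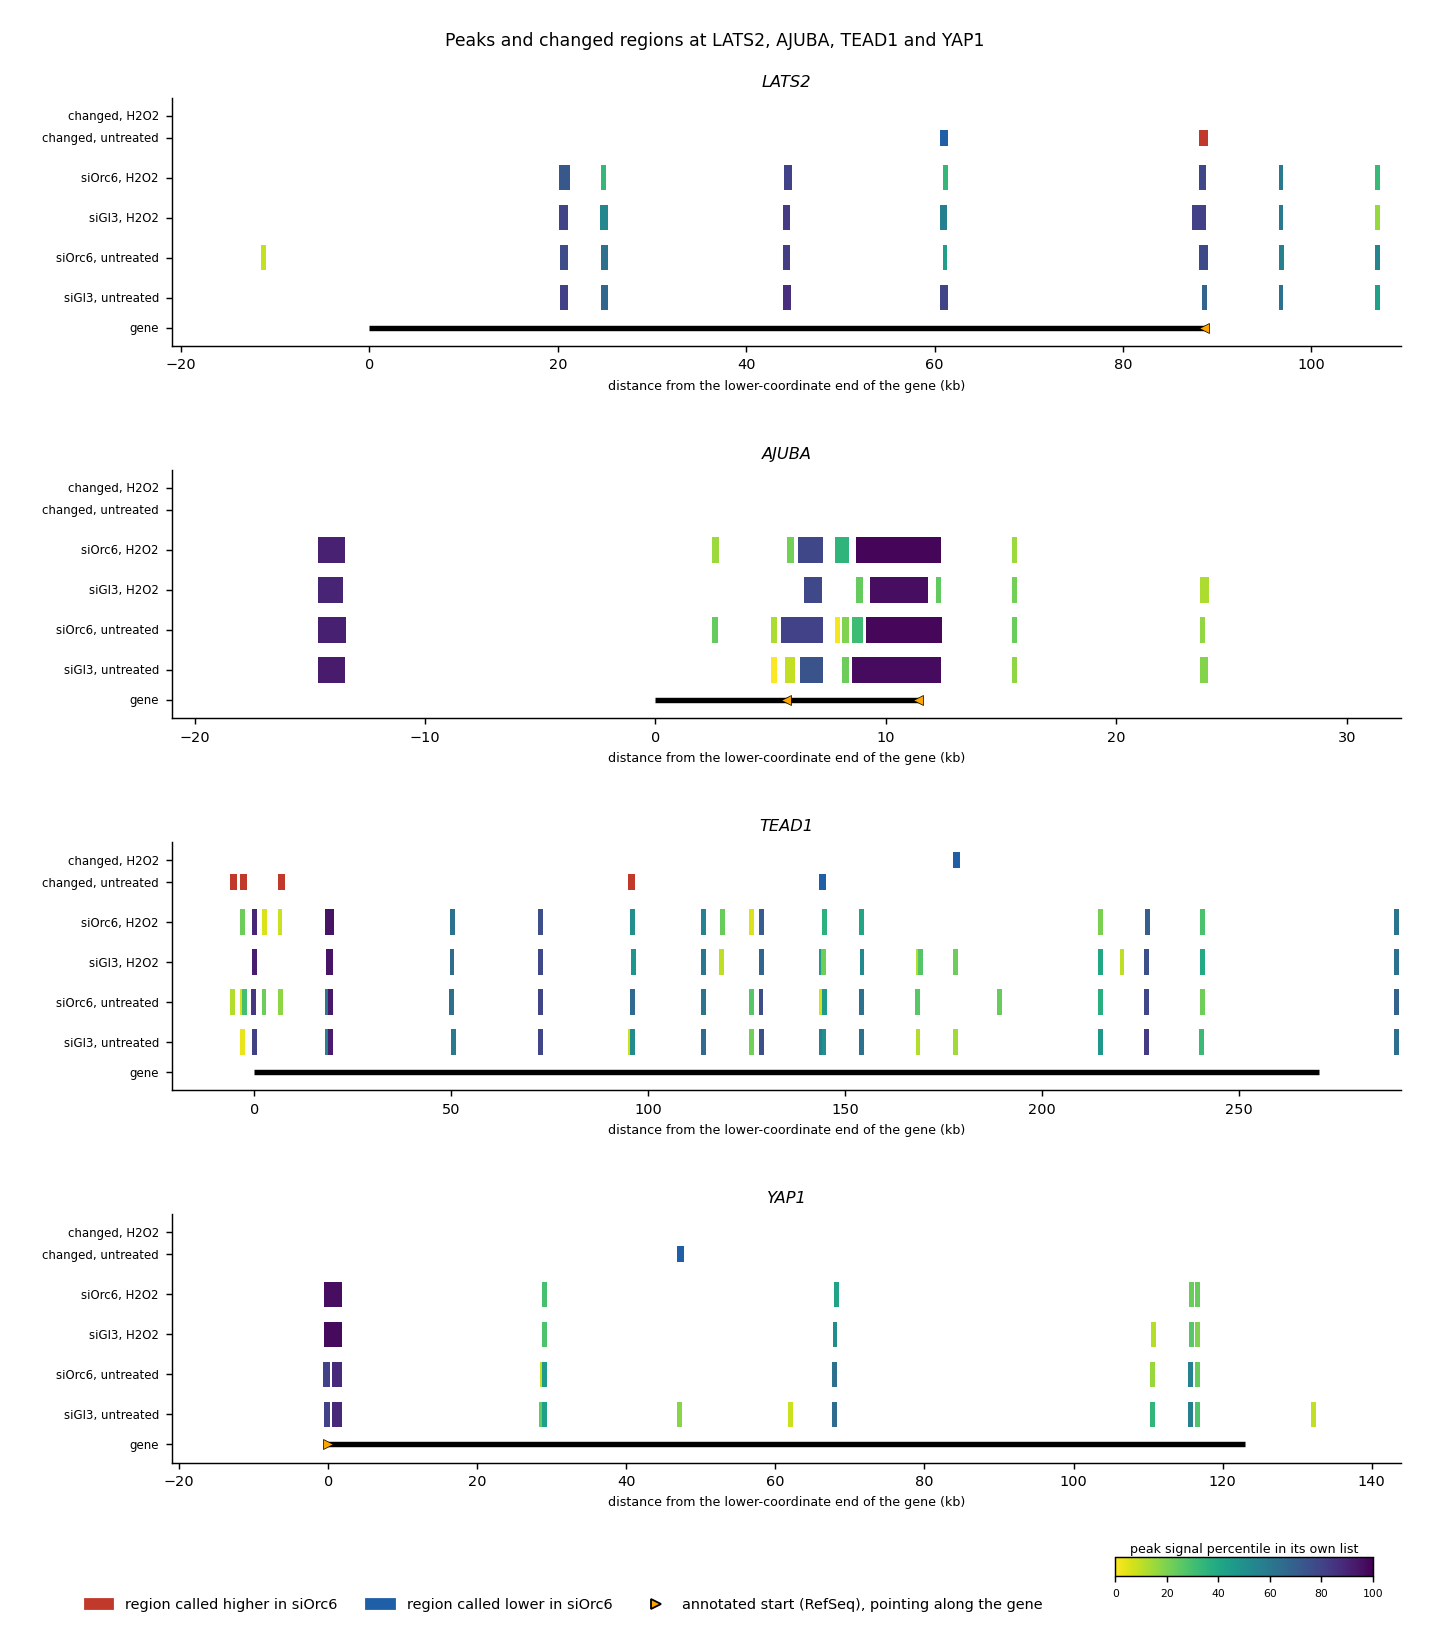
As in the map of the first 6 loci, for LATS2, AJUBA, TEAD1 and YAP1, with distance in kb from the lower-coordinate end of each gene. LATS2 has a higher region at its start and a lower one inside, TEAD1 has 3 higher regions near its lower-coordinate end, and at YAP1 the start is under 1 joined peak with H2O2 and under 2 peaks without.

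With H2O2, few regions were called at these genes. Higher regions were found at 2 of the 10 members, CCN1 and ANKRD1, against 3.30% of all protein-coding genes, and lower ones at 1, TEAD1, against 5.01%. Of the 85 merged peaks of the H2O2 lists in the windows, 2 lay at a higher region (2.35%, interval 0.648% to 8.18%), against 1.13% of all merged peaks, and 1 at a lower one (1.18%, interval 0.208% to 6.37%), against 1.41%. The shares of all peaks lie within both intervals. Of the 17 regions higher without H2O2, 2 overlapped one higher with it, which is close to the 10.8% of all higher regions that did, and none of the 3 lower ones overlapped one lower with it. The list of changed regions was shorter with H2O2 overall (1143 higher and 1464 lower, against 7517 and 5698 without), and whether the members' response differs between treatments beyond that was not tested.

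By presence in the lists, the members had more siOrc6-only than siGl3-only peaks without H2O2, while all peaks together had fewer; with H2O2 the order depended on the peaks kept. Of 98 merged peaks of the 4 lists in the windows, 56 (57.1%) were in every list, against 62.1% of all 129052. With H2O2, 13 (13.3%) were in the siOrc6 list alone and 8 (8.16%) in the siGl3 list alone, against 6.55% and 10.4% of all merged peaks. Among the 50% of peaks with the highest signal in each list the order with H2O2 turned, with 1 of 51 in siOrc6 alone and 6 of 51 in siGl3 alone, and with peaks merged up to 500 bp apart each had 7 of 81. Without H2O2, 18 (18.4%) were in the siOrc6 list alone and 5 (5.10%) in the siGl3 list alone, against 8.51% and 12% of all. Among the 50% of peaks with the highest signal these counts came close, with 6 of 51 (11.8%) in siOrc6 alone and 5 of 51 (9.80%) in siGl3 alone. The wider gap without H2O2 thus rested on weaker peaks. Shares of all merged peaks under these settings were not computed, so the shifts cannot be called particular to the members. Peaks found in siOrc6 alone in both treatments numbered 5 (5.10%, against 1.53% of all), and in siGl3 alone in both 1 (1.02%, against 3.62%). Most siOrc6-only peaks without H2O2 were at THBS1 (6), TEAD1 (5) and AXL (3), and the 5 siGl3-only ones were at YAP1 (3) and TEAD1 (2).

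Summed over the windows, peaks covered 78.5 kb in siOrc6 and 71.3 kb in siGl3 with H2O2, and 97.3 kb in siOrc6 and 80.7 kb in siGl3 without it. The mean peak was 1019 bp wide in siOrc6 and 964 bp in siGl3 with H2O2, and 1035 bp in siOrc6 and 938 bp in siGl3 without it, against 606 to 646 bp over whole lists. The covered length was longer in siOrc6 at 7 of the 10 members with H2O2 and at 9 of 10 without it, YAP1 being the exception. Over all genes with a peak it was longer in siOrc6 at 60.4% with H2O2 and at 59.8% without. The whole lists thus leaned towards siOrc6 by number of genes, although their total covered length was 62.8 Mb in both with H2O2, and 70.6 Mb in siOrc6 and 70.3 Mb in siGl3 without it.

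For H2O2 against untreated cells there are no called regions, only the lists. Covered length was shorter with H2O2 than without at all 10 members in siOrc6 and at 9 of 10 in siGl3, LATS2 being the exception, where it was 5609 bp with H2O2 and 4896 bp without. Over all genes it was shorter at 69.6% in siOrc6 and at 69.1% in siGl3. THBS1 in siOrc6 had 10139 bp with H2O2 and 15576 bp without, and in siGl3 6711 bp with H2O2 and 8216 bp without. At the start of YAP1, 1 peak with H2O2 stood where 2 adjacent peaks lay without it. The start itself lay under a peak of 2484 bp at the 96.6 percentile with H2O2 in siOrc6 and of 956 bp at the 80.4 percentile without, and of 2447 bp at the 97.3 percentile with H2O2 in siGl3 and of 845 bp at the 80.2 percentile without. The adjacent untreated peak was 1418 bp at the 87.9 percentile in siOrc6 and 1456 bp at the 88.9 percentile in siGl3. The joined peak with H2O2 reached over the place of both. In TEAD1, a merged peak of 2232 bp inside the gene (12692382 to 12694613) was 1 peak with H2O2 and 2 without, under both siRNAs. Peaks can join or split at small differences in signal, so a width of this kind holds no measure of how much signal changed.

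Counted by gene and without H2O2, other genes of the pathway, from 3 lists, had higher and lower regions about equally often. Without H2O2, 9 of 20 other YAP and TEAD targets had a higher region (45%) and 10 had a lower one (50.0%). The higher ones were led by ASAP1 and CCDC80 with 3 regions each and CRIM1 and DOCK5 with 2, and the lower ones by DOCK5 and F3, the tissue factor gene, with 2 each and ARHGEF17 and ASAP1 with 1. Of 16 Hippo kinases and adaptors, 7 had a higher region (43.8%), led by the kinase gene STK3 and the scaffold gene WWC1 with 4 each, then FRMD6 and MAP4K4 with 3, and 6 had a lower one (37.5%), led by MAP4K4 with 4 and FRMD6 with 2, then AMOTL1 and LIMD1 with 1. Of 8 genes of the YAP and TEAD transcription complex, 3 had a higher region (VGLL2, VGLL4 and WWTR1, which encodes the YAP1 relative TAZ) and 3 a lower one (TEAD4, VGLL3 and WWTR1), with 1 region each. Counted by region, the kinases and adaptors had 19 higher and 10 lower ones. The other targets had 15 higher and 12 lower, and the transcription complex 3 of each. The whole lists held 7517 higher and 5698 lower regions. Many of the listed genes are long, up to 598636 bp for STK3, and a longer window can meet more regions, so these shares cannot be set directly against 24.8% and 17.8% for all genes.

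With H2O2, 1 of the 20 other targets had a higher region (DOCK5, 5.00%, against 3.30% of all protein-coding genes) and 2 a lower one (ASAP1 and DOCK5, 10.0%, against 5.01%). DOCK5 spans 231023 bp and ASAP1 391571 bp, so gene length limits this comparison too. Of the 16 kinases and adaptors 2 had a higher region (NF2, which encodes merlin, and WWC1) and 2 a lower one (FRMD6 with 2 regions and LIMD1 with 1), and of the transcription complex none had either. The difference between the 10 members and the other targets was not tested.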

How the data were processed

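ATAC-seq of 8 libraries in 4 conditions was analysed from 4 peak lists, 1 per condition, and 4 lists of changed regions. Per the submitters' processing notes, the authors used Genrich, edgeR, deepTools, Bowtie2, SAMtools, Picard and bcl2fastq 2.20, on build hg38; their roles, thresholds, read shifting for the transposase and handling of duplicates are not given in the sources used here. Each deposited peak has a display score, a peak signal and a −log10 p-value, all from the authors; of these only the peak signal was used, as a percentile within its list, and the lowest in each list was 200.0 to 4 digits. For changed regions the authors deposited coordinates and a running number only, without fold changes. Both replicate numbers stand in each peak list's name, so lists were read as pooled.

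Peaks on chromosomes 1 to 22 and X were kept (147 to 168 per list were left out). Peaks were merged where they overlapped or touched, within a treatment for changed regions and over all 4 lists for presence. Overlap meant at least 1 bp. Gene spans came from RefSeq (GRCh38.p14); all 10 members matched, as did all genes of the 3 pathway lists, and 8 members matched the RefSeq promoter table. Positions are 1-based; region starts lie 1 bp before the peaks they match. No test was made, because the files hold no value per library. Shares carry 95% Wilson intervals, for counting error only. All members were named, and of each pathway list at most 4 genes per comparison, by number of regions. Members, lists and rules were chosen with earlier results of these data known. Alternatives were other windows, overlaps, merging and stricter peaks. The overlap code was tested on simulated intervals. Software was pandas 2.3.3, scipy 1.17.1, numpy 2.4.6 and, for plots, matplotlib 3.10.9, run in Python 3.11.15.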

Additional observations from a re-analysis of the deposited data

How the results depend on the processing

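The count of members with a region higher in untreated siOrc6 was 7 with the gene span alone, with 5 kb, with regions at least 50% inside the window and without parts inside other genes (chosen after seeing the data), and 8 with 50 kb on each side. The share of merged peaks there ran from 19.5% without THBS1 (also chosen after seeing the data) to 29.3% with 5 kb. With H2O2, members with a higher region were 0 with the gene span alone and 1 with 5 kb, and their peaks at such regions 0 of 60 with the span alone, since both regions lie outside the genes. The 1 lower region with H2O2 was lost (0 of 43) when the 50% of peaks with the highest signal in each list were kept, its peaks being weak. With that filter 66.7% of merged peaks were in all 4 lists, 1.96% in siOrc6 alone and 11.8% in siGl3 alone with H2O2, which turned their order, 11.8% in siOrc6 alone and 9.80% in siGl3 alone without H2O2, 1.96% in siGl3 with H2O2 alone and 7.84% in siGl3 without H2O2 alone; this last share was 8.64% with peaks merged up to 500 bp apart. The cause of these shifts in presence was not tested, and the same shares over all merged peaks were not computed under these settings. The other 80 of 90 alternative values stayed within the interval or 1.5 times of the reported one. No paired analysis was possible because each peak list pools both libraries of its condition, and for the same reason no replicate could be left out. Unknown depth limits every absence of a peak: it was not detected, not shown to be closed.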
